A study of Mus musculus with 12 samples.

Results

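Primary hepatocytes without G3bp1 were compared with floxed control hepatocytes after treatment with PA, using 6 of the 12 RNA-seq libraries of the series. The control group, Flox_PA, holds 3 libraries of cells from G3bp1-Flox mice, and the knockout group, HKO_PA, holds 3 libraries of cells from mice labelled as a hepatocyte-specific G3bp1-knockout. All mice were 6 weeks old, and the other 6 libraries are the same genotypes given BSA. The series text asks how G3BP1 acts in NASH, a fatty liver disease with inflammation. PA and BSA are not spelled out in the labels, and the Cre driver, the dose, the duration and whether the libraries of a group came from separate mice are not stated there either. The p-values therefore reflect the spread between libraries, which may be technical. Of 54532 genes in the table, 9721 had a mean of at least 1 FPKM (fragments scaled by gene length and by the total of the library) over the 6 PA libraries and were tested, 8824 of them protein-coding.

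G3BP1 is an RNA-binding protein that nucleates stress granules, the cytoplasmic assemblies of messenger RNA and protein that form when translation initiation stalls, and its paralog G3BP2 can take its place in them. Hepatocytes make albumin, lipoproteins, cytochromes P450 and, in mice, the major urinary proteins. A hepatocyte preparation can also carry Kupffer cells, the resident macrophages of the liver, which are known by genes such as Adgre1, Clec4f, Cd5l and Csf1r. Transcripts that macrophages make are therefore described apart from those that hepatocytes make, and genes that either cell can make are described last.

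Reads in genes came to 16.21 to 16.89 M (M, 10 to the power of 6) in the Flox_PA libraries and 15.02 to 15.79 M in the HKO_PA libraries. On the first principal component, with 79% of the variance, the 6 libraries separated by genotype. The HKO_PA libraries varied more among themselves, with a median SD per gene of 0.224 on the log2 scale against 0.114 in Flox_PA, and HKO_PA 1 and HKO_PA 3 lay at opposite ends of the second component (12.4%, at 22.8 and -23.3). Mitochondrial transcripts took 2.21% to 2.4% of the reads in Flox_PA and 5.42% to 8.16% in HKO_PA. The genotype difference also followed gene length, with a Spearman correlation of -0.33 across 9721 genes, which are not independent replicates. Xist, the transcript of the inactive X chromosome, was at 0 in all 12 libraries, and the Y-linked Ddx3y and Eif2s3y were above 0 in all of them.

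G3bp1 itself (ENSMUSG00000018583, chromosome 11, 55469685 to 55504838, plus strand, GRCm38) measured 39.1, 39 and 41.6 FPKM in Flox_PA and 7.03, 7.39 and 8.09 FPKM in HKO_PA. The 3 knockout libraries lay far below the 3 controls and kept 18.8% of the control level (log2 -2.27, SE 0.12, adjusted p = 3.52e-09). G3bp2 measured 1.82, 1.83 and 1.52 FPKM in Flox_PA and 1.93, 1.99 and 1.86 FPKM in HKO_PA, and did not pass (log2 0.10, SE 0.13, adjusted p = 0.563). Differences in the text are HKO_PA minus Flox_PA on the log2(FPKM + 1) scale from limma, and a gene is said to have risen, fallen or passed at an adjusted p under 0.05 over all 9721 genes.

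The knockout preparations differed from the controls in a large part of the transcriptome. Of the genes tested, 3454 passed (35.5%), 1647 of them higher in the knockout (16.9%) and 1807 lower (18.6%), and the median difference over all 9721 genes was 0.006. Of those that passed, 320 higher and 536 lower genes had a difference of at least 1 in size on the log2(FPKM + 1) scale. The 3 libraries of one genotype all lay above those of the other for 5055 genes (52%). Without Flox_PA 3 the number of lower genes was 1148, and it was 1293 to 2306 with any other library left out. At the low end of the scale, 69 genes passed with a difference of -3 or under, and 33 of them were on the macrophage and other leukocyte lists against 1 on the hepatocyte lists. At the high end, 10 genes passed with a difference of 3 or over, and 9 of them were on the hepatocyte lists against 0 on the leukocyte lists.

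**Figure D1:**
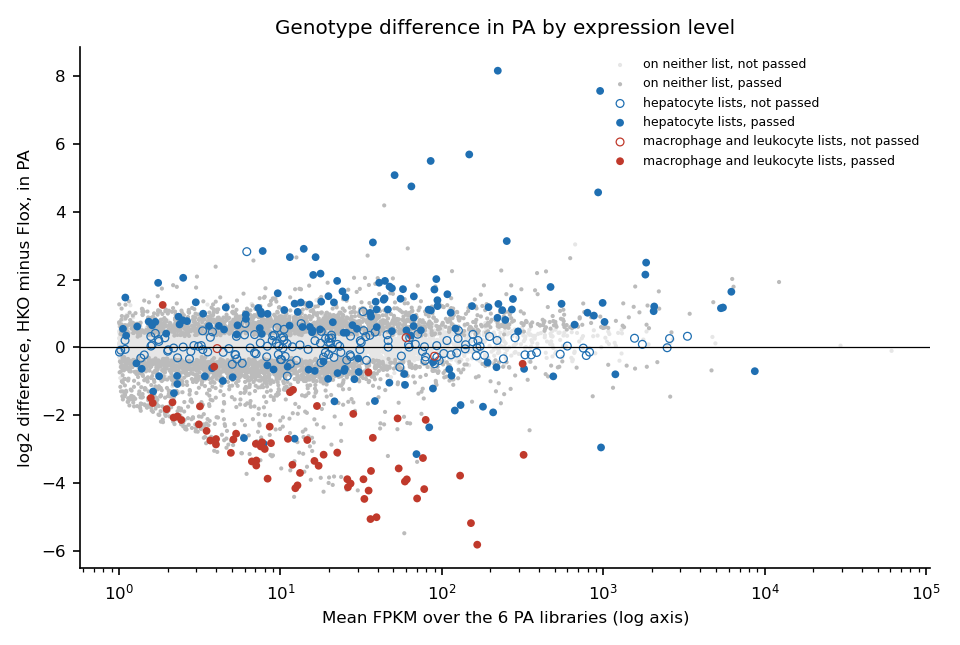
Each point is 1 of the 9721 genes tested, with its mean FPKM over the 6 PA libraries on a log axis and its log2 difference, HKO minus Flox, on the linear axis. Red points mark macrophage and other leukocyte lists and blue points hepatocyte lists, filled where the gene passed; 65 of 69 red genes passed below 0, and the 9 blue genes passing above 3 are 8 Mup genes and Hamp2.

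Macrophage transcripts fell as a group in the knockout libraries. Of 69 tested genes on the macrophage and other leukocyte lists, 65 fell (94.2%, against 18.6% of all genes), 1 rose and 3 did not pass. The median difference was -2.87 against 0.006 over all genes tested. The genotypes did not overlap for 67 of the 69, as they did not for 52% of all genes. These lists together took 0.808% to 0.87% of the reads in Flox_PA and 0.12% to 0.138% in HKO_PA. In such bulk samples, fewer cells of a type and less RNA per cell cannot be told apart. The same lists took 0.846% to 0.917% of the reads in Flox_BSA and 0.0945% to 0.109% in HKO_BSA.

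Of the Kupffer cell and macrophage markers, 56 of 68 reached the level for testing, 53 fell, 0 rose and 3 did not pass (median -2.84), and their summed level was 3281 to 3701 FPKM in Flox_PA and 671 to 730 FPKM in HKO_PA. Cd5l, a secreted protein of tissue macrophages, measured 266, 299 and 322 FPKM in Flox_PA and 8.26, 6.92 and 6.28 FPKM in HKO_PA (log2 -5.19, SE 0.19, adjusted p = 1.91e-10). Csf1r, the receptor through which macrophages receive their survival signal, measured 58.2, 64.7 and 69.9 against 1.6, 2.13 and 2.09 FPKM (log2 -4.47, SE 0.14, adjusted p = 1.72e-10). In both genes every knockout library lay below every control by more than the whole range of either group. C1qa, C1qb and C1qc, the 3 chains of the complement recognition protein C1q, lie side by side on chromosome 4 and fell together, by 4.46, 4.18 and 4.23. C1qa stood at 127, 141 and 138 FPKM in Flox_PA and at 5.94, 4.64 and 5.03 FPKM in HKO_PA.

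Markers that are particular to the resident Kupffer cell fell alongside those that most macrophages share. Clec4f, a lectin of Kupffer cells, measured 12, 13.4 and 16.9 FPKM in Flox_PA and 0.994, 0.857 and 1.07 FPKM in HKO_PA (log2 -2.93, adjusted p = 1.76e-09). Timd4, a receptor for dying cells, fell by 2.75, Vsig4, a complement receptor, by 2.47, and the scavenger receptor Marco fell from 227, 263 and 238 FPKM to 17.1, 14 and 19.2 FPKM. Adgre1, which encodes the F4/80 antigen, measured 38.5, 28.9 and 34.9 FPKM in Flox_PA and 2.85, 3.41 and 2.43 FPKM in HKO_PA, a difference of -3.17. Siglec1, the sialic acid receptor sialoadhesin, fell from 20.8, 22.9 and 28.7 FPKM to 0.0313, 0.296 and 0.195 FPKM (log2 -4.41). Some macrophage genes kept a larger share of their level: Cd68, a lysosomal membrane protein, kept 22.5%, at 77.9, 92.1 and 90.4 FPKM in Flox_PA and 21.8, 19.6 and 17.2 FPKM in HKO_PA. Lyz2, the lysozyme of myeloid cells, was among the most abundant of these genes, at 542, 554 and 638 FPKM against 74.5, 57.5 and 58.4 FPKM (log2 -3.17), and the lysosomal protease Ctss fell by 3.65. The 3 markers that did not pass were Hmox1, Slc40a1 and Id3, which were looked up after the count was known. Their differences were -0.26, -0.04 and 0.29, and hepatocytes and endothelial cells are also known to express them.

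Antigen presentation genes had the lowest median of the 34 lists. All 6 tested members of the MHC class II list fell, with a median of -4.57 and a summed level of 492 to 568 FPKM in Flox_PA against 8.6 to 12.2 FPKM in HKO_PA. Cd74, the invariant chain that escorts class II molecules, measured 300, 348 and 331 FPKM in Flox_PA and 5.96, 4.41 and 4.09 FPKM in HKO_PA, the lowest difference of all named genes (log2 -5.82, SE 0.18, adjusted p = 1.72e-10). The class II chains H2-Aa, H2-Ab1 and H2-Eb1 fell by 5.07, 5.01 and 4.13. H2-Aa stood at 68.6, 72.2 and 72.4 FPKM in the controls and at 1.15, 1.06 and 1.24 FPKM in the knockout libraries. B cells and dendritic cells make class II molecules too, and the B cell markers Cd79a and Ms4a1 and the T cell marker Cd3e were under the level for testing.

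Other leukocyte genes were few. The 3 tested neutrophil markers fell: S100a8 measured 11, 14.6 and 15.9 FPKM in Flox_PA and 0.107, 0.286 and 0.572 FPKM in HKO_PA, and Csf3r and the matrix protease Mmp9 fell by 2.87 and 4.02. Of 4 tested lymphocyte markers, 3 fell and 1 rose. The chemokine Ccl5 fell from 64.8, 62.3 and 68.1 FPKM to 12.6, 8.89 and 7.31 FPKM (log2 -2.67). Ltb, which encodes lymphotoxin beta, was the only gene of the leukocyte lists that rose: it measured 0.614, 0.741 and 0.712 FPKM in Flox_PA and 3.44, 2.44 and 3.23 FPKM in HKO_PA (log2 1.25, SE 0.23, adjusted p = 0.000981).

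PU.1 is a transcription factor that macrophages need, and it binds purine-rich sites. The letters GAGGAAGT were searched on both strands in the RefSeq promoter windows (GRCm38.p6, 250 bases before to 50 after each start) and were present in 3.2% of all 32841 windows. They were in 6 of the 39 tested macrophage markers with a window (Ctss, C1qc, Fcgr4, Cd53, Pld4 and Pirb) and in 0 of 4 tested MHC class II genes. Among genes with a window, the letters were in 4.92% of those that fell, 3.81% of those that rose and 3.16% of those that did not pass. A match describes the sequence only. The 3 stretches below are shown because their genes fell and hold the letters, which are in capitals and read on the opposite strand. C1qc is at chr4:136893065-136893144 on the minus strand, Fcgr4 at chr1:171018867-171018946 on the plus strand and Ctss at chr3:95526749-95526828 on the plus strand.
C1qc: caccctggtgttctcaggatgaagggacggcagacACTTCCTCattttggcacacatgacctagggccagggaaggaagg
Fcgr4: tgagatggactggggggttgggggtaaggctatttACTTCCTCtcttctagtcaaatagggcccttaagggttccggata
Ctss: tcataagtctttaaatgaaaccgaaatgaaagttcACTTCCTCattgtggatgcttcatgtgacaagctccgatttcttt

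**Figure D2:**
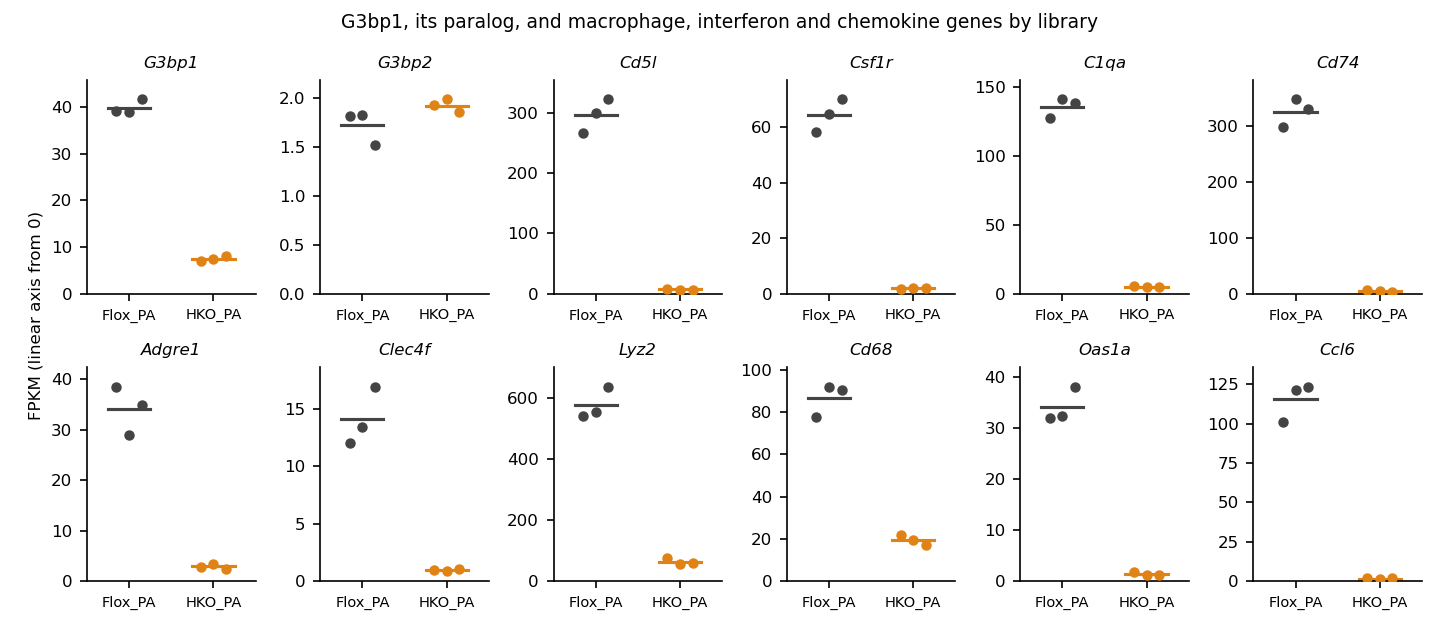
FPKM of 12 genes in each PA library on linear axes that start at 0, with 3 Flox_PA points in dark grey, 3 HKO_PA points in orange and the group mean as a bar. G3bp1 kept 18.8% of its control level and G3bp2 did not pass, while Cd5l, Csf1r, C1qa, Cd74 and Ccl6 lay near 0 in every HKO_PA library and Cd68 kept 22.5%.

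Interferon-response genes and chemokines, which macrophages and hepatocytes can both express, were mostly lower in the knockout. Of 38 tested interferon-response genes, 34 fell (89.5%, against 18.6% of all genes), 1 rose and 3 did not pass, with a median of -1.26. Oas1a, an enzyme that senses viral double-stranded RNA, measured 31.9, 32.2 and 38 FPKM in Flox_PA and 1.78, 1.26 and 1.26 FPKM in HKO_PA (log2 -3.85, SE 0.15, adjusted p = 2.63e-10). Oas1g and Oas3, of the same family, fell by 3.35 and 3.05, and Ifi27l2a, an interferon-induced membrane protein, fell by 4.06 from 46.4, 34.1 and 41.5 FPKM to 1.45, 1.71 and 1.29 FPKM. The 1 member that rose was Cxcl10, a chemokine that draws T cells, looked up after the count was known: it measured 4.04, 2.6 and 2.8 FPKM in Flox_PA and 6.91, 6.7 and 5.82 FPKM in HKO_PA (log2 0.86). The macrophage markers fell in the same libraries, from 3281 to 3701 FPKM to 671 to 730 FPKM in sum, and their part in the interferon result was not tested.

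The interferon-stimulated response element, searched on both strands as GAAANNGAAA, was in 3.44% of all 32841 promoter windows and in 17 of the 31 tested interferon-response genes that have a window (54.8%). It was in 5.56% of the genes that fell, 3.73% of those that rose and 3.01% of those that did not pass. Cxcl10, which rose, is among the 17 that hold the letters. The stretches below are shown for 4 genes that fell and hold the letters, with the matched run in capitals. They lie on the minus strand of GRCm38.p6, Oas1a at chr5:120907501-120907580, Oas1g at chr5:120887587-120887666, Oas3 at chr5:120777690-120777769 and Isg15 at chr4:156200852-156200931. The near-identical stretches of Oas1a and Oas1g belong to neighbouring genes of 1 family, so reads of these genes may not have been parted with certainty. Isg15, a ubiquitin-like protein, holds 3 overlapping matches and fell by 2.05.
Oas1a: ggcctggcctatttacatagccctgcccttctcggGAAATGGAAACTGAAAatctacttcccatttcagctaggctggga
Oas1g: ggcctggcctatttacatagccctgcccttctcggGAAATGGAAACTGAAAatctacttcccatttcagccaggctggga
Oas3: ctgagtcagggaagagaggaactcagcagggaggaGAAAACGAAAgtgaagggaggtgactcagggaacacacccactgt
Isg15: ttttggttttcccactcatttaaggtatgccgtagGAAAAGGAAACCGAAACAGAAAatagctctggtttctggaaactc

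Of 33 tested NF-kB targets, chemokines and cytokines, 24 fell (72.7%), 2 rose and 7 did not pass, with a median of -1.05. Ccl6, a chemokine of myeloid cells, measured 101, 122 and 123 FPKM in Flox_PA and 1.74, 1.22 and 1.84 FPKM in HKO_PA (log2 -5.49, SE 0.21, adjusted p = 3.29e-10). Ccl7, Cxcl3 and Ccl3, which recruit monocytes and neutrophils, fell by 2.76, 2.49 and 2.43. Ccl7 stood at 38, 42.8 and 45.6 FPKM in the controls and at 6.5, 5.04 and 4.63 FPKM in the knockout libraries. The same fall of the macrophage markers stands beside these genes, and its part in them was not tested.

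Markers of other liver cells gave mixed values. Of 11 tested endothelial markers, 3 fell (27.3%, against 18.6% of all genes) and 1 rose (9.09%, against 16.9%), with a median of -0.18. The sum of the list was 43 to 46 FPKM in Flox_PA and 30.5 to 37.9 FPKM in HKO_PA. Stab1, a scavenger receptor of sinusoidal endothelium that macrophages also carry, fell from 8.28, 9.17 and 8.98 FPKM to 1.32, 2.89 and 3.27 FPKM (log2 -1.54). Cdh5, the cadherin of endothelial junctions, fell by 0.69, while Pecam1 (log2 -0.18) and Lyve1 (log2 0.10) did not pass, and Stab2, Kdr and Clec4g were under the level for testing. Of the 4 tested stellate cell and fibroblast genes, the matrix protein Ecm1 fell from 11.8, 16.2 and 15.2 FPKM to 2.57, 2.31 and 3.68 FPKM, and the filament gene Vim had a difference of 0.41 that did not pass without Flox_PA 2 (log2 0.33), whereas Des, Lrat, Reln, Dcn and Col1a1 were under the level for testing. Of 5 tested cholangiocyte genes 3 rose (60%) and 0 fell, and Krt7, Krt19 and Epcam, which define these cells, were under the level for testing. Sox9, a transcription factor of bile duct cells, measured 3.46, 3.62 and 3.68 FPKM in Flox_PA and 6.19, 7.69 and 7.78 FPKM in HKO_PA (log2 0.84).

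Genes on the hepatocyte lists moved in both directions with a smaller median difference, and the major urinary proteins and cytochromes P450 were at the upper end. Of 320 tested genes on the hepatocyte lists, 121 rose (37.8%, against 16.9% of all genes), 49 fell (15.3%, against 18.6%) and 150 did not pass, and the median difference was 0.26. A difference of at least 1 in size on the log2(FPKM + 1) scale was seen for 72 higher and 18 lower genes. Some of the genes that fell, among them Saa3, Pltp, Ucp2, Pkm and Cd36, are made by macrophages too. The part of macrophages in the 49 that fell was not tested. FPKM values are shares of a library, so they rise in one gene when they fall in others. The genes on the macrophage and leukocyte lists fell by under 1% of the reads, as given above, while mitochondrial transcripts gained a larger share. These lists hold marker genes and not all RNA of such cells, whose total share was not estimated.

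The major urinary proteins, small pheromone carriers that the liver secretes, held the highest differences. Of 16 tested Mup genes, 15 rose and 1 did not pass, with a median of 3.02, and they sum to 629 to 725 FPKM in Flox_PA and to 6148 to 12020 FPKM in HKO_PA. Mup7 measured 61.7, 67.1 and 96.7 FPKM in the controls and 2037, 1622 and 1689 FPKM in the knockout libraries (log2 4.57, SE 0.23, adjusted p = 2.59e-09). Mup17 was near 0 in the controls, at 0.236, 0.51 and 0.552 FPKM, and reached 682, 402 and 246 FPKM in HKO_PA (log2 8.16). Mup20, which encodes the male pheromone darcin, measured 55.2, 44 and 49.5 FPKM in Flox_PA and 610, 416 and 338 FPKM in HKO_PA (log2 3.13). Not all members were tight within a genotype: Mup12 ranged from 0.675 to 42.4 FPKM among the controls and from 1295 to 2751 FPKM among the knockouts (log2 7.56, SE 0.83). HKO_PA 1 was the highest of the 3 knockout libraries for the list as a whole, with 1.05% of its reads on Mup genes against 0.753% and 0.62%.

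Reads of the Mup genes cannot be assigned to single members with certainty. In GENCODE transcript sequences of GRCm38, the closest other Mup transcript shared 91.2% to 99.6% of the sequence over the 16 genes, and 13 of them had a copy at 97% or more. The starts of Mup17 (chr4:61595833-61595912) and Mup15 (chr4:61439705-61439784, both on the minus strand of GRCm38.p6) are shown because both genes rose by over 5 and have near-identical starts. Starts were compared position by position without alignment, so a shift by a few bases counts as many differences. In this count the start of Mup11, which rose by 5.08, differs from that of Mup17 at 48 of 80 bases. That of Mup7 differs at 58, and such counts cannot tell whether these genes share the stretch. Mup17 and Mup15 differ at 6 positions in the same count. These are in capitals for Mup15 and lie in the A-rich stretch before the TATA-like run.
Mup17: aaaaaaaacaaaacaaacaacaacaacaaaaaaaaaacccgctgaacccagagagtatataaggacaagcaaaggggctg
Mup15: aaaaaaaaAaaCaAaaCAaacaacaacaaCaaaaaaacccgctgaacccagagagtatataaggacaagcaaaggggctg

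Drug-metabolizing cytochromes P450, the oxidases that clear drugs and steroids, rose in large part. Of 31 tested members, 21 rose (67.7%), 2 fell and 8 did not pass, with a median of 1.11. Cyp2b10, a target of the xenobiotic receptor CAR, measured 3.09, 3.78 and 4.57 FPKM in Flox_PA and 30.4, 29.1 and 28.1 FPKM in HKO_PA (log2 2.66, SE 0.16, adjusted p = 1.75e-08). Cyp2c37, Cyp2c68 and Cyp2c50, of the family that oxidizes arachidonic acid, rose by 1.96, 1.91 and 1.70. Cyp2c37 stood at 12.9, 17.1 and 23.6 FPKM in the controls and at 83.3, 67 and 62.4 FPKM in the knockout libraries. These genes too belong to clusters of close paralogs, between which reads may be split.

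Genes of hepatocyte identity had a median difference of 0.27. Of 31 tested, 12 rose (38.7%, against 16.9% of all genes), 3 fell (9.68%, against 18.6%) and 16 did not pass. The secreted proteins and enzymes on the list, not its leading transcription factors, made up most of those that rose, with Ppara as the 1 exception among its transcription factors. Alb measured 3758, 3132 and 2890 FPKM in Flox_PA and 11716, 6262 and 5322 FPKM in HKO_PA (log2 1.17, SE 0.41, adjusted p = 0.0411), and the 3 knockout libraries lay above the controls. Alb did not pass when any library other than HKO_PA 3 was left out (log2 0.83 without HKO_PA 1), and its difference was 0.34 after quantile normalization. Ttr, the carrier of thyroxine and retinol, rose by 1.07 and Serpina1a, alpha-1 antitrypsin, by 0.75. Fabp1, which binds fatty acids in the hepatocyte cytosol, had a difference of 0.67 that was 0.40 and did not pass without HKO_PA 1. Slc10a1, the uptake carrier for bile acids, measured 5.11, 5.75 and 6.33 FPKM in Flox_PA and 36.3, 28.3 and 24.4 FPKM in HKO_PA (log2 2.17). Hnf4a, the nuclear receptor that maintains the hepatocyte program, measured 11.6, 14.9 and 16.1 FPKM against 6.88, 11.6 and 14.3 FPKM and did not pass (log2 -0.39), with overlapping groups. Without HKO_PA 1 the list had 6 higher genes, without Flox_PA 2 or Flox_PA 3 it had 7, and without Flox_PA 3 it had 0 lower genes.

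Lipid droplet and triglyceride genes included members that moved in opposite directions. Of 22 tested, 5 rose (22.7%, against 16.9% of all genes), 2 fell (9.09%, against 18.6%) and 15 did not pass, and 4 fell without HKO_PA 3. The share that rose is near that of all genes. Plin2, which coats lipid droplets, measured 269, 361 and 337 FPKM in Flox_PA and 763, 791 and 786 FPKM in HKO_PA (log2 1.28, SE 0.16, adjusted p = 2.84e-05). The droplet proteins Cidec and Hsd17b13 rose by 1.16 and 1.32. Dgat2, which joins the last fatty acid to a triglyceride, fell from 165, 219 and 217 FPKM to 57.2, 54.3 and 70.4 FPKM (log2 -1.70). All 3 knockout libraries were thus higher for Plin2 and lower for Dgat2 than every control.

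Of 18 tested fatty acid synthesis genes, 6 fell (33.3%, against 18.6% of all genes), 2 rose and 10 did not pass, and 1 rose with any of the 6 PA libraries left out. Fasn, the fatty acid synthase, measured 52.2, 52.8 and 66.6 FPKM in Flox_PA and 10, 22.6 and 26.5 FPKM in HKO_PA (log2 -1.59, SE 0.27, adjusted p = 0.000718). Acaca and Acacb, the carboxylases that feed it, had differences of -0.99 and -0.86, and Acacb did not pass without Flox_PA 2. Of 38 tested genes of fatty acid uptake, oxidation and PPARA, the nuclear receptor that drives oxidation, 18 rose (47.4%, against 16.9% of all genes), 3 fell and 17 did not pass. Cyp4a14, a PPARA target that hydroxylates fatty acids, measured 1.14, 1.02 and 1.27 FPKM in Flox_PA and 15.6, 14.6 and 12.9 FPKM in HKO_PA (log2 2.84), and Cyp4a10 rose by 2.13. The members that fell most were Ucp2, a mitochondrial carrier, by 2.68 and Cd36, a fatty acid uptake receptor, by 1.30. Macrophages also express Ucp2 and Cd36, whose part was not tested.

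**Figure D3:**
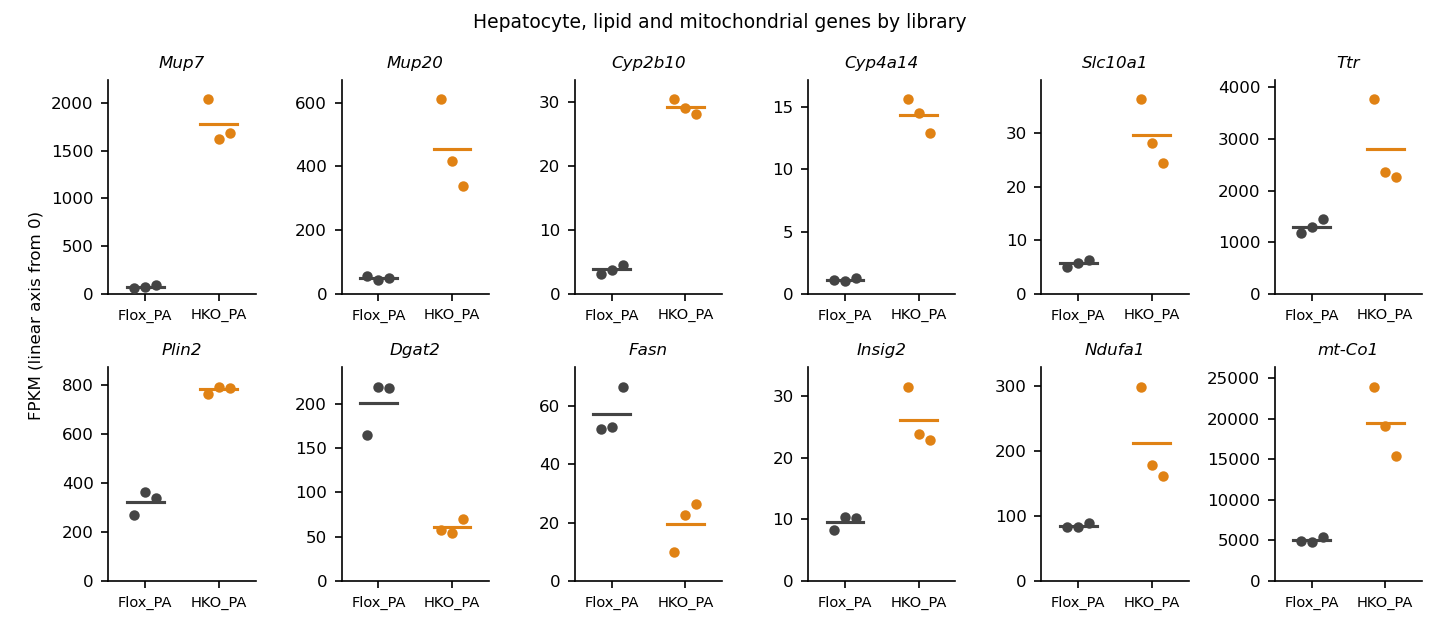
FPKM of 12 genes in each PA library on linear axes that start at 0, with 3 Flox_PA points in dark grey, 3 HKO_PA points in orange and the group mean as a bar. Mup7, Mup20, Cyp2b10, Cyp4a14, Slc10a1, Ttr, Plin2, Insig2, Ndufa1 and mt-Co1 lay higher in all 3 HKO_PA libraries and Dgat2 and Fasn lower, and HKO_PA 1 was the highest library for Mup20, Ndufa1 and mt-Co1.

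Of 21 tested apolipoprotein and VLDL genes 9 rose (42.9%, against 16.9% of all genes) and 1 fell. Apoa4, an apolipoprotein of triglyceride-rich particles, measured 25.6, 52.2 and 33.2 FPKM in Flox_PA and 178, 123 and 142 FPKM in HKO_PA (log2 2.01), and Apoh and the lipase Lipc rose by 1.78 and 1.79. The gene that fell was Pltp, the phospholipid transfer protein, at 12.6, 15.3 and 15.8 FPKM in the controls and 1.25, 1.21 and 1.01 FPKM in the knockouts (log2 -2.85), and macrophages make it as well. Of 27 tested cholesterol genes 13 rose (48.1%), 4 fell and 10 did not pass. Insig2, which holds back the sterol-sensing factor SREBP, rose from 8.22, 10.5 and 10.2 FPKM to 31.5, 23.9 and 22.9 FPKM (log2 1.35), and the late synthesis enzymes Msmo1, Sc5d and Cyp51 rose by 1.40, 1.34 and 1.12. The number of lower cholesterol genes depended on single libraries and was 1 without Flox_PA 3 and 2 without Flox_PA 2 or HKO_PA 1.

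Bile acid, glucose and amino acid genes showed smaller and mixed differences. Of 13 tested bile acid genes 4 rose (30.8%, against 16.9% of all genes) and 2 fell (15.4%, against 18.6%). Those that fell were the basolateral exporters Abcc3 and Abcc4 (log2 -1.11 and -0.88), and Baat, which conjugates bile acids, rose by 0.63. Without Flox_PA 2, Flox_PA 3 or HKO_PA 2 only 2 bile acid genes rose, and without HKO_PA 2 there were 4 that fell. Of 21 tested glucose genes 5 rose (23.8%) and 7 fell (33.3%), and 4 fell without Flox_PA 2, Flox_PA 3, HKO_PA 1 or HKO_PA 2. Slc2a2, the hepatocyte glucose transporter, rose by 1.33. Pkm, the pyruvate kinase of most cells other than adult hepatocytes, fell from 123, 163 and 136 FPKM to 26.3, 23.3 and 29.8 FPKM (log2 -2.36), and macrophages express it. Of 29 tested urea cycle and amino acid genes 9 rose (31%) and 3 fell, with Otc, a mitochondrial enzyme of the urea cycle, at 1.59 and Gnmt, a methyltransferase, at 0.93. The number that rose was 4 or 5 without Flox_PA 1, Flox_PA 2 or Flox_PA 3, and 1 fell without Flox_PA 3 or HKO_PA 2.

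Acute phase proteins, which hepatocytes secrete in response to cytokines, had members among the largest differences of either direction on the hepatocyte lists. Of 51 tested acute phase, complement and coagulation genes, 14 fell (27.5%, against 18.6% of all genes), 9 rose (17.6%, against 16.9%) and 28 did not pass, so the share that rose is near that of all genes. Lcn2, an iron-sequestering protein, measured 1539, 1674 and 1931 FPKM in Flox_PA and 266, 205 and 193 FPKM in HKO_PA (log2 -2.96, SE 0.16, adjusted p = 6.54e-09). Saa3, a serum amyloid that macrophages also make, fell from 116, 138 and 123 FPKM to 16.7, 10 and 13.8 FPKM (log2 -3.15), and the complement protein C4b and the acid glycoprotein Orm2 fell by 1.87 and 1.92. Hamp2, a hepcidin gene, rose from 7.99, 8.42 and 4.58 FPKM to 93.6, 57.2 and 52.5 FPKM (log2 3.09), and Serpina3k, a protease inhibitor, rose by 2.14. The chemokine and cytokine list fell in the same libraries, as given above.

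The growth hormone and IGF list covers a signal that controls Mup genes in the liver through STAT5. Of 14 tested members, 6 rose (42.9%, against 16.9% of all genes), 3 fell (21.4%, against 18.6%) and 5 did not pass. Igf1 measured 8.4, 8.46 and 8.19 FPKM in Flox_PA and 50.4, 31.4 and 27.8 FPKM in HKO_PA (log2 1.96, SE 0.18, adjusted p = 1.91e-06). The IGF-binding protein Igfbp1 rose by 1.74. Socs3, a cytokine-induced inhibitor of STAT signalling, fell from 19.6, 23.9 and 22.3 FPKM to 1.91, 2.75 and 3.02 FPKM (log2 -2.70). Without Flox_PA 2, Flox_PA 3 or HKO_PA 1, 1 gene of the list fell.

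Mitochondrial transcripts, which every nucleated cell type of the liver makes, were higher in the knockout. All 13 tested mitochondrially encoded genes rose, with a median of 1.76, and their sum was 15760 to 16920 FPKM in Flox_PA and 41390 to 74420 FPKM in HKO_PA. The cytochrome b gene mt-Cytb measured 2335, 2305 and 2652 FPKM in the controls and 13749, 9331 and 7366 FPKM in the knockouts (log2 2.02, SE 0.32, adjusted p = 0.00038). The ATP synthase gene mt-Atp6 was uneven across the knockouts, at 1954, 993 and 365 FPKM against 140, 139 and 151 FPKM (log2 2.63, SE 0.50). Of 73 tested nuclear genes for subunits of oxidative phosphorylation, 45 rose (61.6%), 0 fell and 28 did not pass, with a median of 0.63. Uqcrc2, Uqcrb, Ndufa1 and Cox7b, subunits of the respiratory complexes, rose by 1.41, 1.28, 1.25 and 1.18. Ndufa1 stood at 83.1, 83.5 and 89.3 FPKM in the controls and at 299, 178 and 161 FPKM in the knockouts. Short genes were higher in the knockout in general: protein-coding genes under 1 kb had a median difference of 0.47 (285 genes) and those over 4 kb one of -0.13 (4322 genes). With the trend on gene length removed from each library, an alternative chosen after the data were seen, 34 nuclear subunit genes and 12 mitochondrially encoded genes rose.

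Mitochondrial calcium uptake genes were looked at as a complete list, since the series title names the uniporter complex. Of 11 tested, 2 fell, 0 rose and 9 did not pass. Mcu, the pore of the uniporter, measured 4.34, 4.15 and 4.92 FPKM in Flox_PA and 4.14, 4.7 and 5.86 FPKM in HKO_PA and did not pass (log2 0.10, SE 0.13, adjusted p = 0.566). Its regulator Micu2 had a difference of 0.28, the small subunit Smdt1 0.17, Mcur1 0.04, Letm1 -0.20, and the outer membrane channels Vdac1, Vdac2 and Vdac3 -0.03, 0.22 and 0.34, none of which passed. Mcub, the paralog of Mcu that dampens the pore, fell from 3.08, 3.54 and 3.1 FPKM to 0.226, 0.201 and 0.402 FPKM (log2 -1.73, SE 0.12, adjusted p = 4.89e-08). Slc8b1, which exchanges mitochondrial calcium for sodium, measured 16.2, 19.3 and 17.3 FPKM against 5.82, 9.86 and 13.8 FPKM (log2 -0.85) and did not pass without Flox_PA 2 or HKO_PA 1, where the list had 1 lower gene. The macrophage markers fell beside Mcub, and their part in its difference was not tested.

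Of 25 tested stress granule components 8 fell, G3bp1 among them (32%, against 18.6% of all genes), 0 rose and 17 did not pass. Usp10, a deubiquitinase that binds G3BP1, measured 21.9, 20.9 and 24.9 FPKM in Flox_PA and 8, 12.3 and 16.1 FPKM in HKO_PA (log2 -0.89, SE 0.19, adjusted p = 0.00355). Atxn2l and Prrc2c, other granule proteins, had differences of -0.64 and -0.70, and did not pass without Flox_PA 3 and without HKO_PA 1, respectively. Of 25 tested ATF4 and CHOP targets 7 fell (28%) and 2 rose (8%), with 1 that rose without Flox_PA 1, Flox_PA 2, Flox_PA 3 or HKO_PA 1: the amino acid transporters Slc7a5 and Slc7a1 and the glutathione-degrading enzyme Chac1 fell by 1.04, 0.93 and 0.91, and the stress factor Atf3 rose by 0.74. Of 28 tested chaperone and degradation genes of the endoplasmic reticulum 4 fell (14.3%) and 2 rose (7.14%), both shares below those of all genes. Hyou1, a chaperone of its lumen, had a difference of -0.80, and Dnajc3, a cochaperone, one of 0.94 that did not pass without Flox_PA 3 or HKO_PA 1. Without Flox_PA 2, 1 gene of that list fell, and without HKO_PA 1, 2 fell and 1 rose.

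Cytosolic heat shock genes had 4 of 18 that rose (22.2%) and 3 that fell (16.7%), near the 16.9% and 18.6% of all genes, and 1 fell without Flox_PA 2, Flox_PA 3 or HKO_PA 1. Hspb1, a small heat shock protein, measured 83.1, 96.5 and 78 FPKM in Flox_PA and 300, 212 and 190 FPKM in HKO_PA (log2 1.41), and the inducible Hspa1b and Hspa1a rose by 1.14 and 0.90. Of 40 tested NRF2 targets and antioxidant genes 18 fell (45%), 8 rose (20%) and 14 did not pass, with the share that rose near that of all genes, and 5 rose without HKO_PA 1. The members at the 2 ends differ in function: Cbr3, a carbonyl reductase, fell from 77.8, 94.3 and 74.3 FPKM to 29.3, 22.3 and 25.7 FPKM (log2 -1.64), while the glutathione transferases Gsta4 and Gsta2 rose by 2.05 and 2.04 and the microsomal Mgst1 by 1.33. Gsta2 stood at 12.6, 15.1 and 17.2 FPKM in the controls and at 80.7, 57.5 and 57.1 FPKM in the knockouts.

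**Figure D4:**
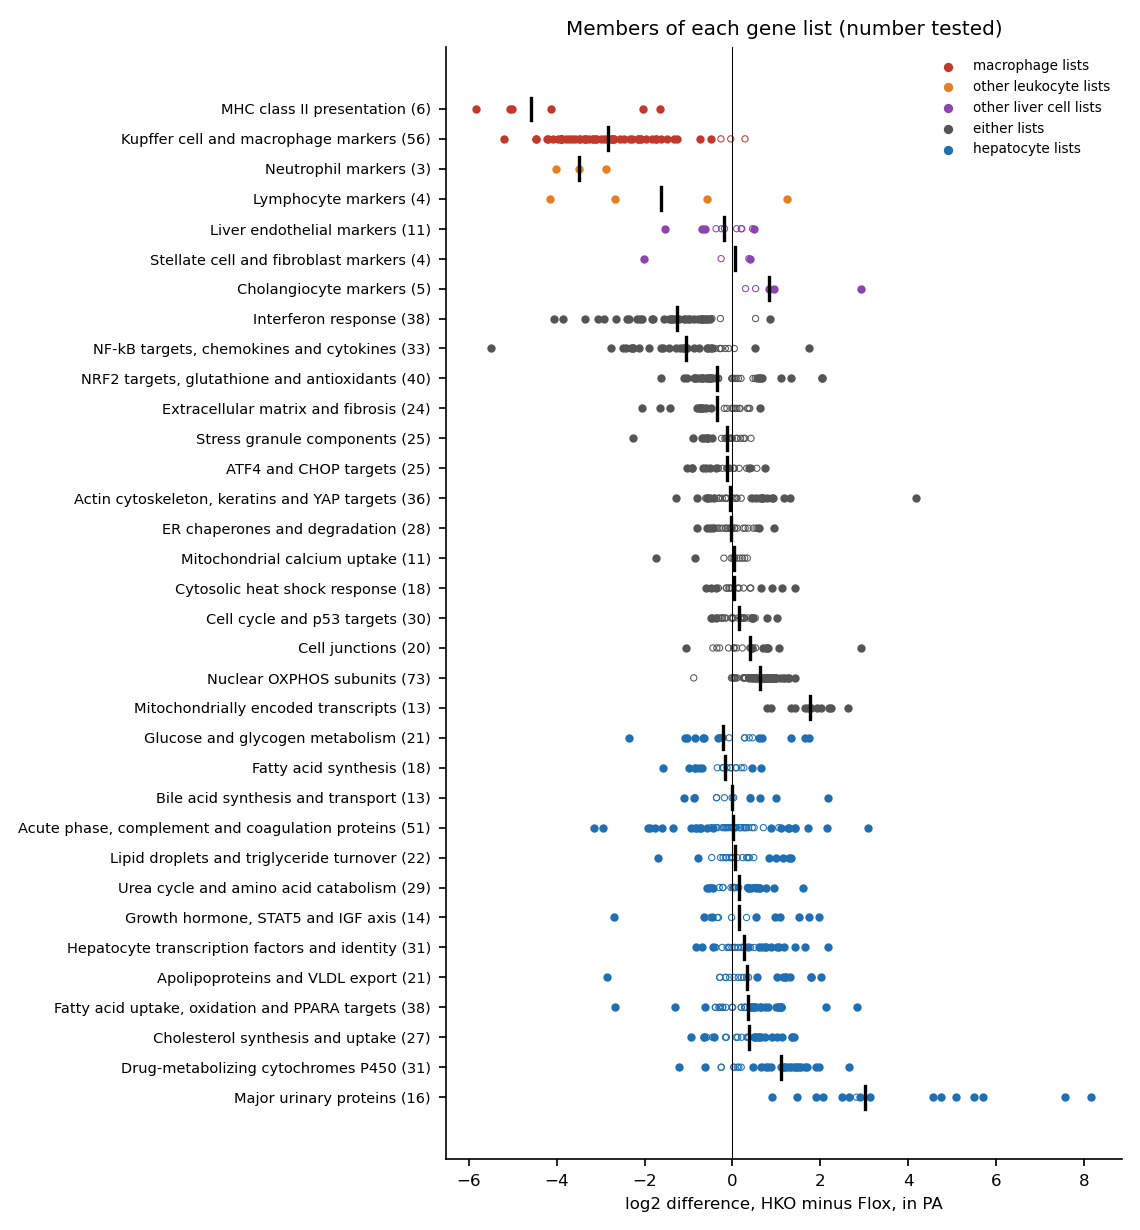
Each row is 1 of the 34 gene lists with its number of tested genes, each point is 1 gene at its log2 difference, HKO minus Flox in PA (filled where it passed), and the black bar is the median. The macrophage lists centre at -4.57 and -2.84, the interferon list at -1.26, the P450 list at 1.11, the mitochondrially encoded genes at 1.76 and the Mup genes at 3.02.

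The same genotype comparison was available in BSA-treated cells. The median difference of the macrophage markers was -2.84 in PA and -3.39 in BSA, that of the Mup genes 3.02 and 2.97, and that of the mitochondrially encoded genes 1.76 and 1.29. The library HKO_BSA 1 stood apart, with 4.1% of its reads on mitochondrial transcripts against 7.91% and 8.2% in the other HKO_BSA libraries, and 0.496% on Mup genes against 0.861% and 0.827%. Without it the BSA medians were -3.39 for the macrophage markers, 3.47 for the Mup genes and 1.72 for the mitochondrially encoded genes. The difference between the 2 genotype differences was tested for all 9721 genes, and 24 passed (0.247%), 15 of them with a higher value in PA and 9 with a lower one. Of the genes on the leukocyte lists 1 of 69 passed this test and of those on the hepatocyte lists 1 of 320. Of the genes on neither, 13 passed with a higher value in PA and 9 with a lower one. Among the 13 were Lpl, Slfn2, Slfn1 and Ms4a4c. Their genotype differences were -3.67, -4.04, -2.65 and -2.85 in BSA and -2.58, -2.92, -1.87 and -1.67 in PA. The cells that made these transcripts were not tested. The count of 24 rests on single libraries. It was 1 without Flox_PA 2, 6 without Flox_BSA 1, 7 without Flox_BSA 2 and 8 without HKO_BSA 2. It was 11 without Flox_PA 3 or HKO_PA 2, 13 without HKO_BSA 3, 15 without Flox_BSA 3 and 258 without HKO_PA 3.

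G0s2, an inhibitor of the lipase that opens lipid droplets, had the highest such value. It measured 66.2, 75.1 and 61.5 FPKM in Flox_BSA and 29.9, 16.7 and 22.1 FPKM in HKO_BSA, but 34.6, 31 and 28 FPKM in Flox_PA and 47.9, 35.4 and 37.8 FPKM in HKO_PA. The knockout was thus below the controls in BSA (log2 -1.55) and slightly above them in PA (log2 0.35, not passed), a difference of 1.91 (SE 0.27, adjusted p = 0.0128). Adam8, a membrane protease of myeloid and stressed cells, had a genotype difference of 0.13 in BSA, at 4.21, 6.33 and 5.94 FPKM in Flox_BSA and 6.88, 5.73 and 5.5 FPKM in HKO_BSA. In PA it fell from 5.03, 7 and 7.01 FPKM to 1.68, 1.44 and 1.68 FPKM. Gclc, the first enzyme of glutathione synthesis, measured 86.1, 92.2 and 83.4 FPKM in Flox_BSA and 119, 169 and 144 FPKM in HKO_BSA, and 147, 132 and 141 FPKM in Flox_PA and 77.5, 90.7 and 93.2 FPKM in HKO_PA. The knockout was above the controls in BSA and below them in PA, with no overlap in either.

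**Figure D5:**
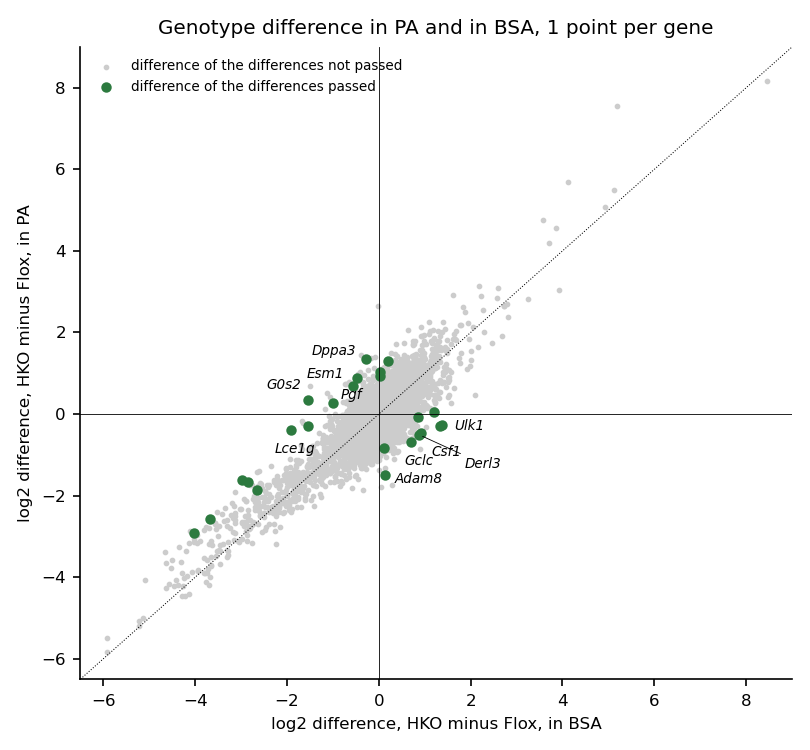
Each point is 1 gene at its log2 difference, HKO minus Flox, in BSA (horizontal) and in PA (vertical), with the dotted line where both are equal. The 24 green genes passed the test of the difference between them. The labelled ones are the 5 named protein-coding genes per direction furthest from the line, from G0s2 at 1.91 above it to Adam8 and Ulk1 at -1.61.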

How the data were processed

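Total RNA was extracted with an RNeasy Plus Mini Kit and sequenced from NEBNext Ultra libraries, per the labels. The authors deposited 1 table of FPKM values per gene and library with the gene length; GRCm38 (mm10) is named in the submitters' processing notes, while for the aligner, the counter and the annotation these sources give no name. FPKM times length gave whole reads, within 0.01, for 100% of values of up to 1000 reads. All values were used as log2(FPKM + 1). One limma model (limma 3.58.1, R 4.3.3, trended variance prior) with 4 group means over 12 libraries (8 residual degrees of freedom) gave HKO minus Flox in PA, in BSA and their difference, two-sided, with Benjamini-Hochberg adjustment over 9721 genes. An exact permutation test of 3 against 3 cannot go below p = 0.1 and was not used for calls. Genes on a leukocyte list were left out of the hepatocyte lists and of the lists of genes that either cell can make. The endothelial, stellate cell and cholangiocyte lists were not filtered in this way. The 34 lists, their members and the comparison were chosen with earlier results of these data known. Named genes are G3bp1 and G3bp2, the defining markers and calcium uptake genes, the 8 with the highest difference per direction over all genes, leukocyte lists and hepatocyte lists among genes that passed with separated groups, 2 to 4 per list, and 5 per direction for the difference between PA and BSA; not all of them are printed. The genes ranked by difference were protein-coding and had no Gm or Rik symbol. Cxcl10, Hmox1, Slc40a1, Id3, Ppara, Gm10108, Clec7a and the genes given for a promoter match fall outside this rule and were chosen after their values were seen. Promoter sequences are from RefSeq (GRCm38.p6). Alternatives were a pseudocount of 0.1, no filter, a filter at 5 FPKM, quantile and trimmed mean scaling, only the PA libraries, a fold limit, a replicate block, a robust prior, array weights, limma-voom on the computed reads, and each library left out; added after the data were seen were omission of both HKO libraries numbered 1, removal of a trend with gene length, and a block on the number within each genotype for the difference between PA and BSA. Some genes of the lists are not reported here by name.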

Additional observations from a re-analysis of the deposited data

Results flagged for a closer look

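These genes had a genotype difference in PA that differed from the one in BSA, by a test of the difference itself in limma. They are the 5 named protein-coding genes per direction with the largest values among the 24 of 9721 that passed. The value given is the log2 difference, HKO minus Flox, in PA minus that in BSA. Left out by this rule were the processed pseudogene Gm10108 (-1.66) and Clec7a (1.35), which is annotated as a polymorphic pseudogene and is on the leukocyte lists. Above 0 were G0s2 (1.91), which inhibits triglyceride lipase, Dppa3 (1.63), a germ cell and early embryo factor, Lce1g (1.52), a cornified envelope gene, Esm1 (1.36), an endothelial proteoglycan, and Pgf (1.27), a growth factor for blood vessels. Dppa3 was low throughout, at 0.246, 0.398 and 0 FPKM in Flox_PA and 2.25, 1.85 and 2.15 FPKM in HKO_PA. Lce1g was lower in the knockout in BSA (log2 -1.91) and did not pass in PA (log2 -0.39). Below 0 were Adam8 (-1.61), Ulk1 (-1.61), a kinase that starts autophagy, Csf1 (-1.39), the macrophage growth factor, Gclc (-1.39), and Derl3 (-1.38), which takes part in degradation at the endoplasmic reticulum. Csf1 measured 6.36, 6.15 and 7.19 FPKM in Flox_BSA, 14.3, 13 and 12.5 FPKM in HKO_BSA, 8.2, 7.49 and 8.32 FPKM in Flox_PA and 3.96, 6.18 and 6.6 FPKM in HKO_PA. Groups of 3 libraries are too small for a test of single outlying libraries.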

How the results depend on the processing

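No named gene changed direction under any alternative that could be fitted. Of 167 named genes 149 passed in PA, and 132 of these passed with each of the 6 PA libraries left out in turn. Asking for a difference of at least 1 in size on the log2(FPKM + 1) scale left 320 higher and 536 lower genes, 72 and 18 of them on hepatocyte lists. A filter at 5 FPKM left 1126 lower genes and 0 higher on the leukocyte lists, where Ltb is too low to enter, because fewer genes were tested. Array weights raised the counts over all genes tested, to 2348 higher in place of 1647 and 2651 lower in place of 1807. On the hepatocyte lists they gave 74 lower genes in place of 49, and the cause was not tested. With 1 library left out, the higher genes numbered 1098 to 1893, the lower 1148 (without Flox_PA 3) to 2306, those on hepatocyte lists 96 to 123 higher and 35 to 56 lower, those on leukocyte lists 1 higher and 63 to 65 lower, and genes whose difference in PA differed from that in BSA 1 to 258. The last count, 24 as reported, was 49 after quantile normalization, 83 with HKO_PA 1 and HKO_BSA 1 both omitted and 59 after removal of the trend with gene length, the last 2 chosen after the data were seen. Libraries are numbered 1 to 3 in every group, but numbers 1, 2 and 3 gave correlations of 0.28, -0.19 and 0.37 between the deviations of Flox_PA and HKO_PA. Across BSA and PA, same-numbered libraries gave 0.20, -0.01 and 0.31 in Flox and -0.24, 0.34 and -0.48 in HKO. Not every pair exceeded 0.1 in any of these 3 checks, and the numbers were not used as pairs. With the replicate number as a block the 6 PA libraries gave 1833 higher and 1825 lower genes, and the 12 libraries 15 genes in place of the 24. With the number as a replicate block within each genotype, an alternative chosen after the data were seen, 4 genes passed in place of the 24. Between 65.1% and 99.5% of the 3454 calls were shared with each alternative, and 0 in the opposite direction. Differences of genes near 1 FPKM are understated on this scale, and 3 libraries a group limit what could pass.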

Other observations

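Of 20 tested cell junction genes 8 rose (40%, against 16.9% of all genes) and 1 fell, with 2 that fell without Flox_PA 1 or HKO_PA 3. Cldn4, a claudin of tight junctions, measured 11.4, 17 and 12.5 FPKM in Flox_PA and 97.4, 97.4 and 133 FPKM in HKO_PA (log2 2.92), and Cldn1 and Perp, a desmosome protein, rose by 1.07 and 0.80. Cldn14 fell by 1.06. Of 36 actin, keratin and YAP target genes 12 rose (33.3%) and 6 fell. S100a6, a calcium-binding protein of epithelial and mesenchymal cells, had the highest difference outside the hepatocyte lists among protein-coding genes, at 4.05, 2.94 and 3.91 FPKM in Flox_PA and 107, 73 and 72.9 FPKM in HKO_PA (log2 4.19). Ctgf and Anxa3 rose by 1.31 and 1.18, and Cnn2, a calponin that macrophages also carry, fell by 1.29. The number that fell was 3 without Flox_PA 2, Flox_PA 3 or HKO_PA 1, 11 without HKO_PA 3 and 13 after quantile normalization.

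Of 24 extracellular matrix genes 11 fell (45.8%) and 1 rose, with 7 that fell and 0 that rose without Flox_PA 3. Mmp13 and Mmp14, which cleave collagen, fell by 2.06 and 1.42, Tgfb1, the main fibrogenic cytokine, fell from 9.45, 10 and 10.4 FPKM to 2.58, 2.41 and 2.44 FPKM (log2 -1.65), and Col4a1, of basement membrane, fell by 0.80. Macrophages make Tgfb1 and Mmp14 as well, and the part of the macrophage fall in them was not tested. Of 30 cell cycle and p53 genes 5 rose (16.7%, near the 16.9% of all genes) and 3 fell (10%), with 3 that rose without Flox_PA 1, 8 after quantile normalization, and 1 that fell without Flox_PA 2, Flox_PA 3 or HKO_PA 1. Pcna, the sliding clamp of DNA replication, measured 41.6, 40 and 41.6 FPKM in Flox_PA and 99.4, 77.1 and 77.5 FPKM in HKO_PA (log2 1.02), and the p53 target Btg2 rose by 0.79.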
